A study of Mus musculus with 7 samples.

Results

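Ebf1, Ebf2 and Ebf3, 3 of the 32285 genes in the count table, were followed through single-cell libraries of mouse neural crest cells. The genes were taken by symbol, and their levels were summed over mesenchymal cells and over neuronal cells of each of 7 libraries. A cell counted as mesenchymal with at least 2 unique molecular identifiers (UMIs) of Twist1, Prrx1 and Prrx2 together and fewer than 3 of Tubb3 and Stmn2. It counted as neuronal with at least 3 UMIs of Tubb3 and Stmn2 and fewer than 2 of the mesenchymal genes.

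EBF proteins are DNA-binding transcription factors of the COE family, which carry a helix-loop-helix region for dimerization and bind DNA as pairs. EBF1 is known for committing progenitors to the B lymphocyte fate, and EBF2 for specifying brown fat cells. In the nervous system the family acts downstream of proneural factors as neurons leave the cell cycle, and in connective tissue its members mark mesenchymal precursors.

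EGFP-positive cells of the Wnt1-Cre lineage were sorted from pooled embryos, labelled Swiss-Webster and kept on a mixed background of that name per the study's methods. The 4 control libraries carried Wnt1-Cre/+;ROSA-EGFPf/+ and came from E8.5 (1 library), E9.5 (1) and E10.5 (2). The 3 libraries titled Tbx1null came from E9.5 (1) and E10.5 (2), and their genotype field reads Wnt1-Cre/+;Tbx1+/-;ROSA-EGFPf/+. The title and that field disagree. The study's own sample list gives these libraries as Tbx1-/-, as the titles do, and "null" here follows the titles. Cre under the Wnt1 promoter marks dorsal neural tube cells as well as crest, so central nervous system progenitors and neurons were in the sort. Tissue was the anterior part of the embryo at E8.5, the pharyngeal region with the heart and first arch at E9.5, and the region without the first arch at E10.5. The chemistry was kit version 2 at E8.5, version 3.1 in the control libraries of E9.5 and E10.5 and in null E10.5 replicate 2, and version 3 in the other 2 null libraries. At E9.5 genotype and kit version therefore cannot be told apart. The study calls its E10.5 pairs biological replicates. Nothing in the labels says that the 2 libraries of a group came from separate litters, so p-values measure the spread between these libraries.

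After filtering, 5587 to 9557 cells per library were kept, with medians of 14855.5 to 22882 UMIs per cell. Libraries shared at most 0.41% of the barcodes of the smaller one. Tbx1, the targeted gene, was nearly silent in this lineage at 0.545 to 0.686 CPM (UMIs scaled to 1000000 UMIs of the cells counted) at E8.5 and E9.5. At E10.5 it was at 5.14 and 3.76 in control and at 2.97 and 2.67 in null libraries, so its counts check the labels little. Null E10.5 replicate 2 stood apart: 53.2% of its cells with at least 10 mesenchymal UMIs also passed the neuronal gate, against 0.552% to 14.3% in the other 6 libraries. Only 748 cells stayed mesenchymal there, and 1485 passed both gates and were left out of both classes. Its mesenchymal cells held 81.1 CPM of 5 neuron markers (Elavl3, Elavl4, Dcx, Nefl and Nefm), against 9.30 to 19.9 in the other libraries. Most tests of the 3 genes that include that library are given with and without it in the main setting. At E8.5 the neuronal gate caught few neurons, since the same 5 markers summed to 37.4 CPM there, against 159 and 285 at E9.5 and 1078 to 2550 at E10.5. The mesenchymal marker list (Pdgfra, Pdgfrb, Dlx2 and Col3a1) rose with stage in mesenchymal cells, from 61.4 at E8.5 to 354 to 405 at E10.5. In these mesenchymal cells markers of blood summed to at most 2.57, of endothelium to at most 7.32 and of B lineage cells to at most 0.385 CPM, and heart muscle markers reached 42.1 in control E10.5 replicate 1.

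In GRCm38 (mm10) annotation Ebf1 spans 390775 bases on the plus strand of chromosome 11 (44617317 to 45008091). Ebf2 spans 197627 bases on the plus strand of chromosome 14 (67233292 to 67430918). Ebf3 spans 120773 bases on the minus strand of chromosome 7 (137193673 to 137314445). Genes annotated on the opposite strand overlap exons of Ebf2 and Ebf3 but none of Ebf1, and all 3 members had 1 row each in the count table. RefSeq promoters were found for Ebf1, Ebf3 and the paralog Ebf4. The EBF recognition letters, half-sites TCCC and GGGA 2 bases apart, read the same on both strands. They were in 0.779% of 32851 promoters over the 250 bases before the start and in none of the 4 promoters of these genes. The Ebf3 promoter is shown because Ebf3 had the largest change with stage. It lies at chr7:137314446-137314695 on the minus strand, is 80% G and C, and is printed 5′ to 3′ with its longest palindrome, of 10 bases, in capitals:
Ebf3 promoter: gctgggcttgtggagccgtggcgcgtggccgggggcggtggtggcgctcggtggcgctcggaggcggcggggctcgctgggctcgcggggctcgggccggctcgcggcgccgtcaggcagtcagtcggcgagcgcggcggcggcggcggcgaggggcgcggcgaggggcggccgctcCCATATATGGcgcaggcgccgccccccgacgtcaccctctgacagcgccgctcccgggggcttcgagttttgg
The capitals hold the letters of a CArG box, the element that serum response factor reads, and that stretch was in 0.07% of promoters. A match is a description of letters and not a measured site.

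At E8.5 all 3 genes were low in mesenchymal cells, and Ebf3 was nearly absent. Ebf1 was at 7.15 CPM (95% exact Poisson interval 6.44 to 7.91, counting error only) and Ebf2 at 8.60 (7.83 to 9.44). Ebf3 was at 0.54 CPM in the same 2000 cells. In cells past the neuronal gate Ebf1 was at 2.07, Ebf2 at 1.22 and Ebf3 at 2.28. Background was read in Sox2 cells, which are neural progenitors outside both gates with a Sox2 UMI, fewer than 2 Sox10 UMIs and no proneural UMI. There Ebf1 was at 1.58, Ebf2 at 0.0452 and Ebf3 at 0.0904. With 1 library and an older kit version at E8.5, no test against later stages was made.

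**Figure D1:**
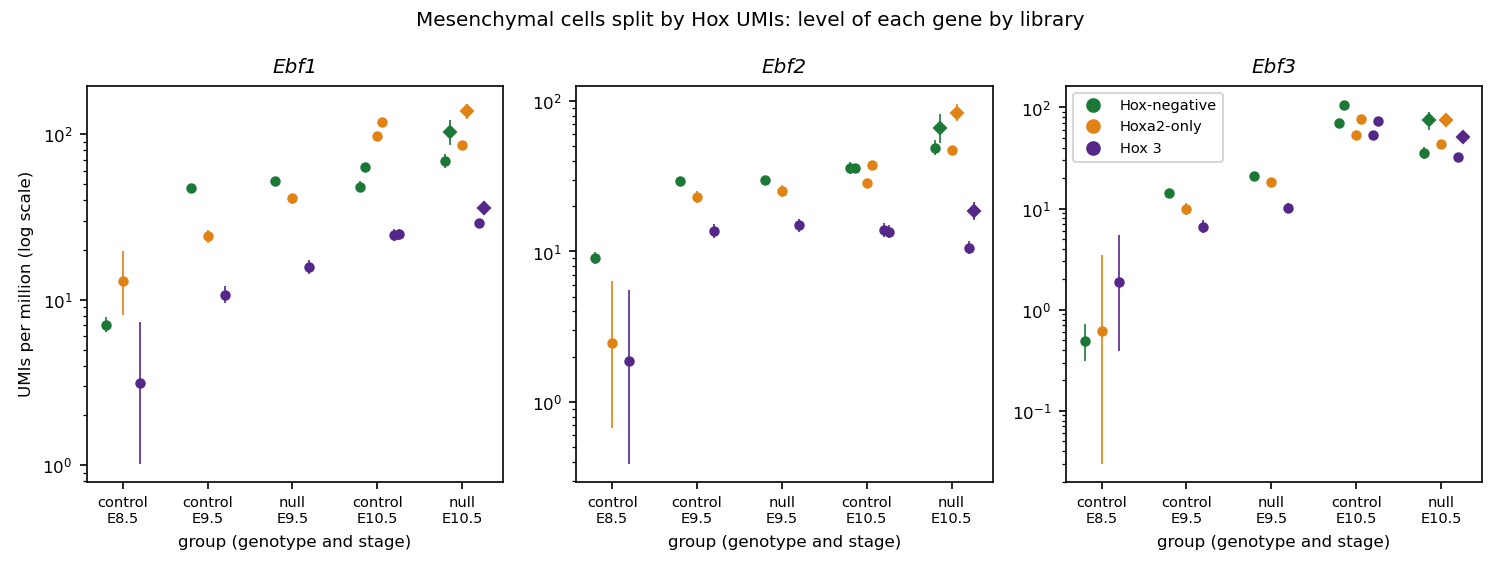
Level of Ebf1, Ebf2 and Ebf3 in mesenchymal cells split by Hox UMIs, in CPM on a log axis, by group. Points are libraries, diamonds mark null E10.5 replicate 2, and bars are 95% exact Poisson intervals (counting error only). At E10.5 Ebf1 sat at 24.7 to 36.1 in the 4 Hox 3 values and at 86.3 to 138 in the 4 Hoxa2-only values.

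Mesenchymal cells were split by Hox UMIs, as a guide to the head-to-tail axis of the arches. Hox 3 cells had a Hoxa3, Hoxb3 or Hoxd3 UMI (the third and more caudal arches). Hoxa2-only cells had a Hoxa2 UMI and none of those, and the rest were Hox-negative. The study finds Hoxa2 in the second and also in the more caudal arches. Hoxa2-only cells can therefore include caudal cells whose Hox 3 transcripts went unsampled, beside second arch cells. Whether that mix differs with genotype was not tested. Hox-negative cells are first arch crest at E9.5 and also include cells whose Hox transcripts went unsampled. At E10.5 the first arch was left out. Hox-negative cells there had the lowest median depth of these classes in each library (13569 to 20102.5 UMIs, against 17978 to 26510 in Hoxa2-only cells). The 3 genes differed in this split. Ebf1 was highest in Hoxa2-only cells at E10.5, at 98.0 and 118 CPM in control replicates 1 and 2 and at 86.3 and 138 in null replicates 1 and 2. In Hox-negative cells Ebf1 was at 48.4, 63.6, 69.3 and 103 in the same order. The last value rests on 72 cells, as do all Hox-negative values of null E10.5 replicate 2 in the main setting. In Hox 3 cells Ebf1 was at 24.7, 24.9, 29.2 and 36.1. The order Hoxa2-only, Hox-negative, Hox 3 held for Ebf1 in each of the 4 libraries. At E9.5, when the first arch was in the dissection, Ebf1 was instead higher in Hox-negative than in Hoxa2-only cells, at 47.8 against 24.2 in control and 52.0 against 41.0 in null.

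Within libraries, with library as a block in edgeR's quasi-likelihood test, Ebf1 was lower in Hox 3 than in Hox-negative cells by a log2 fold change of -1.22 (SE 0.083, adjusted p = 3.98e-05, n = 4 libraries). Ebf2 was lower by -1.64 (SE 0.13, adjusted p = 0.000115 by edgeR) and Ebf3 by -0.37 (SE 0.072, adjusted p = 0.0142 by edgeR). All 3 passed, against 8.15% of 14291 genes tested, and all 3 passed without null E10.5 replicate 2, at -1.16, -1.60 and -0.33. The Ebf3 call ended with all cells thinned to 5000 UMIs before the gates (-0.059), and without control E10.5 replicate 1 (adjusted p = 0.0702) or replicate 2 (adjusted p = 0.13, both by edgeR). The Ebf1 call ended when cells past both gates were kept (-0.57, adjusted p = 0.089 by edgeR), the setting that adds most cells of null E10.5 replicate 2.

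Between Hoxa2-only and Hox-negative cells Ebf1 was higher by 0.80 (SE 0.11, adjusted p = 0.00433 by edgeR, 14.7% of 14101 genes called). Without control E10.5 replicate 1 the difference was 0.65 and its adjusted p 0.0656 by edgeR. Ebf2 differed by 0.040 (SE 0.082) and Ebf3 by -0.15 (SE 0.11), and neither passed. Leaving out null E10.5 replicate 2, the values were 0.84, which passed, -0.017 and -0.20. With cells thinned before the gates the Ebf2 difference grew to 0.42 and passed (adjusted p = 0.000877 by edgeR).

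Ebf2 was low in Hox 3 cells at each stage from E9.5 on. It was at 13.7 CPM in control and 14.9 in null at E9.5, and at 13.97, 13.55, 10.6 and 18.7 at E10.5 (control replicates 1 and 2, null replicates 1 and 2). In Hox-negative cells Ebf2 was at 29.3 and 30.0 at E9.5 and at 35.9, 35.8, 49.0 and 66.0 at E10.5. The Hox 3 and Hox-negative values did not overlap, and the share of all genes with such separation was not counted.

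From E9.5 to E10.5 the stage comparison used the Hox-positive classes, because the first arch was dissected at E9.5 and not at E10.5. By the study's sample list the control dissections also reached only the third arch at E9.5 and the sixth at E10.5. In Hox 3 cells stage and the mix of caudal arches therefore cannot be told apart. The same holds for Hoxa2-only cells as far as they include caudal cells. Ebf3 had the largest rise of the 3. In Hox 3 cells Ebf3 was at 6.60 (control) and 10.2 (null) CPM at E9.5, and at 54.0, 73.4, 32.6 and 51.6 at E10.5. In Hoxa2-only cells Ebf3 went from 9.87 and 18.2 to 53.6, 76.2, 43.5 and 74.4. Every E10.5 value lay above every E9.5 value in both classes, and the share of all genes that show this was not counted. With genotype as a term over 6 libraries, the log2 fold change of Ebf3 was 2.20 (SE 0.33, adjusted p = 0.00309 by edgeR) in Hox 3 cells and 1.82 (SE 0.33, adjusted p = 0.0116 by edgeR) in Hoxa2-only cells.

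Ebf1 also rose, by 1.44 in Hoxa2-only cells (SE 0.27, adjusted p = 0.0121 by edgeR) and by 0.72 in Hox 3 cells (SE 0.18, adjusted p = 0.0192 by edgeR). Its E9.5 values were 24.2 and 41.0 CPM in Hoxa2-only cells and 10.8 and 15.7 in Hox 3 cells. The control Hox 3 value lay below that of the Sox2 cells of its library (12.6) and the null value above its own (6.27), while cells of the same libraries with at least 2 Sox10 UMIs, outside both gates, held less than either, at 1.38 in control and 2.30 in null. Ebf2 changed by 0.58 (SE 0.27) in Hoxa2-only cells and by -0.43 (SE 0.22) in Hox 3 cells, and neither passed. Of all genes, 23.1% of 14307 were called in Hox 3 cells and 14.3% of 13488 in Hoxa2-only cells. With null E10.5 replicate 2 left out, the rises were 2.18 and 1.75 for Ebf3 and 0.70 and 1.37 for Ebf1 (Hox 3 and Hoxa2-only cells), and all 4 passed. Ebf2 was then at -0.58 and 0.38 and did not pass. Each stage has few libraries: without the single control E9.5 library the estimates were 1.59 and 1.27 for Ebf3 and 0.61 and 1.04 for Ebf1 (Hox 3 and Hoxa2-only cells), and none passed. The Ebf1 rise in Hox 3 cells did not pass either without control E10.5 replicate 1 (0.72) or null E9.5 (0.81), or with doublets kept (0.46).

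Along the proximal-distal axis, cells were split by UMIs of Dlx5 and Dlx6, which pattern the ventral part of the arches. A further split was by Barx1, a homeobox gene of arch mesenchyme whose place on that axis was not read here. From E9.5 on Ebf2 was higher in Dlx5/6-negative cells. At E9.5 it was at 12.2 in Dlx5/6-positive and 33.9 CPM in negative cells of the control library, and at 14.7 and 38.0 in the null library. At E10.5 the Ebf2 pairs (positive, then negative) were 14.8 and 37.8, and 14.4 and 48.0, in control replicates 1 and 2. They were 14.5 and 31.2, and 31.5 and 34.0, in null replicates 1 and 2. The last pair rests on 60 Dlx5/6-positive cells. At E8.5 the order was the other way, at 12.0 and 8.28.

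Across the 4 E10.5 libraries Ebf2 was lower in Dlx5/6-positive cells by -1.15 (SE 0.18, adjusted p = 0.00661 by edgeR, 22.2% of 14970 genes called). Ebf2 was also lower in Barx1-positive than in Barx1-negative cells, by -0.66 (SE 0.11, adjusted p = 0.00255 by edgeR, 32.1% of 14989 genes called). Without null E10.5 replicate 2 these were -1.28 and -0.68, and both passed. The Barx1 difference was lower in all 4 libraries and did not pass when cells past both gates were kept (-0.50, adjusted p = 0.0731 by edgeR).

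Ebf1 went the other way in the Barx1 split at E10.5. It was at 77.4, 89.2, 72.6 and 90.1 CPM in Barx1-positive cells and at 47.3, 70.3, 40.8 and 54.9 in Barx1-negative cells (control replicates 1 and 2, null replicates 1 and 2). The log2 fold change was 0.75 (SE 0.074, adjusted p = 0.000357 by edgeR), and 0.76 without null E10.5 replicate 2, which also passed. At E9.5 Ebf1 was lower in the Barx1-positive cells of both libraries, at 29.0 against 40.2 in control and 42.0 against 46.8 in null, with 1 library each and no test. Ebf3 differed by 0.17 (SE 0.14) in the Barx1 split and by 0.25 (SE 0.20) in the Dlx5/6 split at E10.5, and Ebf1 by 0.25 (SE 0.16) in the latter; none of these passed. Leaving out null E10.5 replicate 2, they were 0.18, 0.14 and 0.35, and none passed. The Barx1 ratio of Ebf3 (positive over negative cells) was 3.09 in control and 2.68 in null at E9.5. At E10.5 it was 0.971 and 0.765 in control and 1.545 and 1.15 in null replicates 1 and 2, so the pooled value joins libraries on both sides of 1, and this difference between genotypes was not tested.

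**Figure D2:**
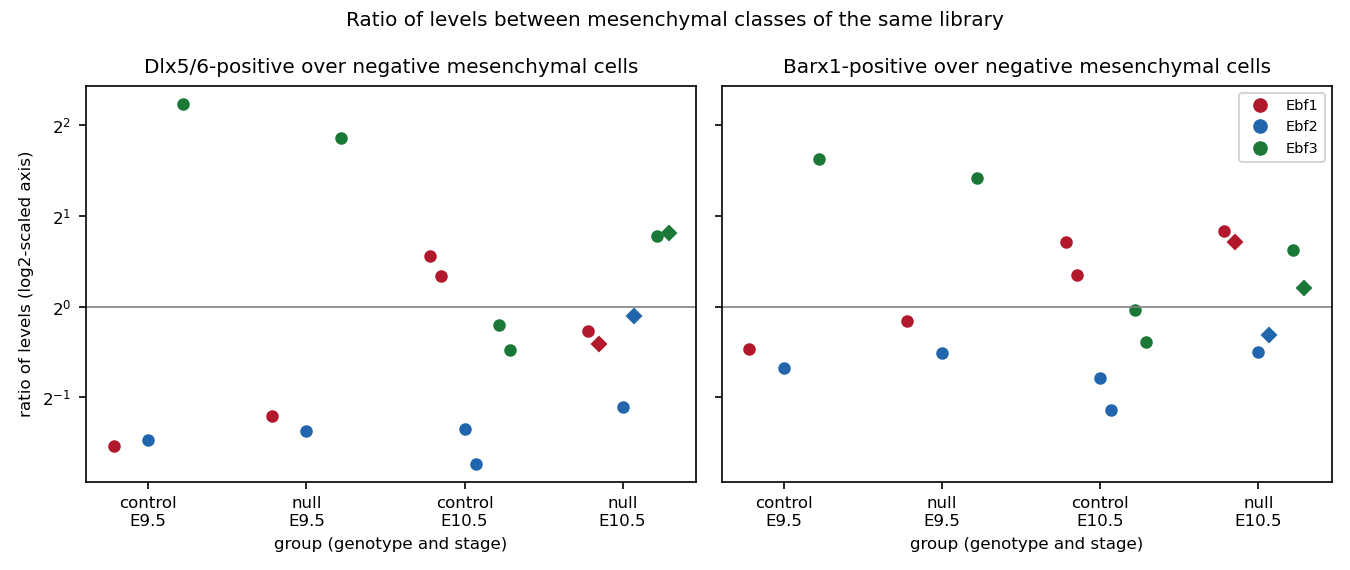
Ratio of the level in Dlx5/6-positive over negative cells (left) and in Barx1-positive over negative cells (right) of the same library, on a log2-scaled axis, by group from E9.5 on. Points are libraries and diamonds mark null E10.5 replicate 2. The Dlx5/6 ratio of Ebf3 was 4.71 and 3.62 at E9.5 and between 0.719 and 1.75 at E10.5.

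The Dlx5/6 ratio of Ebf3 differed between stages and, at E10.5, between genotypes. At E8.5 Ebf3 was low, at 2.18 CPM in Dlx5/6-positive and 0.378 in negative cells, a ratio of 5.78. At E9.5 Ebf3 was at 22.0 CPM in Dlx5/6-positive and 4.67 in negative cells of the control library, a ratio of 4.71. In the null library it was at 30.3 and 8.37, a ratio of 3.62. At E10.5 the ratio was 0.871 and 0.719 in the control libraries (53.8 over 61.8, and 70.1 over 97.5) and 1.72 and 1.75 in the null libraries (51.2 over 29.9, and 94.6 over 54.0). The control values reversed their order between E9.5 and E10.5 and the null values did not. Only the E9.5 dissection kept the first arch, so stage and dissection cannot be told apart in these ratios.

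From E9.5 on the Dlx5/6 ratio of Ebf1 moved in the opposite sense. It was 1.65 at E8.5 (11.1 over 6.76 CPM). At E9.5 it was 0.344 and 0.434 (control, null), and at E10.5 it was 1.47 and 1.27 in the controls and 0.828 and 0.751 in the nulls. These differences of a contrast were tested after the levels had been seen, with library as a block. Between E9.5 and E10.5 the Dlx5/6 contrast changed by 1.54 for Ebf1 (SE 0.24, adjusted p = 0.0251 by edgeR) and by -1.89 for Ebf3 (SE 0.34, adjusted p = 0.0398 by edgeR), with 1.19% of 15832 genes called. For Ebf2 it changed by 0.14 (SE 0.24), or by 0.011 without null E10.5 replicate 2, and did not pass. Without either E9.5 library or control E10.5 replicate 1 neither call held, with Ebf1 at 1.34 to 1.67 and Ebf3 at -2.10 to -1.70. Neither held when cells past both gates were kept (adjusted p = 0.054 for Ebf1 and 0.122 for Ebf3, by edgeR). With null E10.5 replicate 2 left out, the change was 1.59 for Ebf1 and -2.02 for Ebf3 (adjusted p = 0.0546 by edgeR).

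Between genotypes at E10.5 the contrast was lower in null by -0.83 for Ebf1 (SE 0.093, adjusted p = 5.44e-05 by edgeR) and higher by 1.04 for Ebf3 (SE 0.10, adjusted p = 1.21e-05 by edgeR). For Ebf2 it was 0.52 (SE 0.19, adjusted p = 0.109 by edgeR), which passed without control E10.5 replicate 1 (0.78) or null E10.5 replicate 2 (0.46). Here 9.78% of 14970 genes were called, and the median of all genes was -0.077. When null E10.5 replicate 2 was left out, whose Dlx5/6-positive class has 60 cells, the values were -0.71 for Ebf1 and 1.13 for Ebf3, and both passed. Without null E10.5 replicate 1, which leaves only version 3.1 libraries, they were -0.90 (adjusted p = 0.0665 by edgeR) and 1.11. The null libraries held fewer Dlx5/6-positive cells (735 and 60) than the controls (1464 and 2829), and the part that the mix of arches within these cells plays was not tested.

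Cells of the outflow gate (at least 3 UMIs of Gata3, Isl1 and Hand1) numbered 436 and 811 in the E10.5 controls and 341 and 144 in the nulls. Ebf3 was at 92.5 and 169 CPM there in control replicates 1 and 2 and at 45.1 and 71.8 in null replicates 1 and 2. Ebf1 was at 19.1 and 21.8 in control and at 44.5 and 73.7 in null, in the opposite direction. Values of these genes did not overlap between genotypes, and those of Ebf2 did, at 44.8 and 33.5 against 28.9 and 44.5. With 2 libraries per genotype such separation is weak evidence, and the share of all genes that show it was not counted. This genotype comparison was added after the levels were seen. The genes of the gate may themselves differ with genotype: in all mesenchymal cells Gata3 was at 16.2 and 16.3 CPM in control and at 20.6 and 27.6 in null libraries, which did not overlap (log2 difference 0.38, adjusted p = 0.45 by edgeR). Within the gate Hand1 was at 198 and 234 in control and at 124 and 141 in null (-0.76, adjusted p = 0.193 by edgeR). The cells compared may therefore not be the same in both genotypes, and the part of that in the Ebf values was not tested.

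In the outflow gate Ebf1 was higher in null by 1.45 (SE 0.27, adjusted p = 0.0499 by edgeR, 0.348% of 12343 genes called), which passed narrowly and failed under 7 of the other settings. Ebf3 was lower by -1.24 (SE 0.31, adjusted p = 0.123 by edgeR) and did not pass, while DESeq2 gave it -1.21 with an adjusted p of 0.0302. It also passed with replicate number as a block (-1.18, adjusted p = 0.0188 by edgeR), with cells thinned before the gates (-1.70) and with no filter on low counts (-1.23). Ebf2 differed by -0.16 (SE 0.27, adjusted p = 0.829 by edgeR) and did not pass. With null E10.5 replicate 2 left out, the values were 1.12 for Ebf1 and -1.54 for Ebf3. Without null E10.5 replicate 1 they were 1.80 and -0.91. All libraries were then version 3.1, and the null arm was the 144 outflow gate cells of null E10.5 replicate 2. The Ebf3 value was -1.58 without control E10.5 replicate 1 and -0.73 without control E10.5 replicate 2. The 0.348% of genes called holds for the main setting only, and that share varied widely with the setting.

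**Figure D3:**
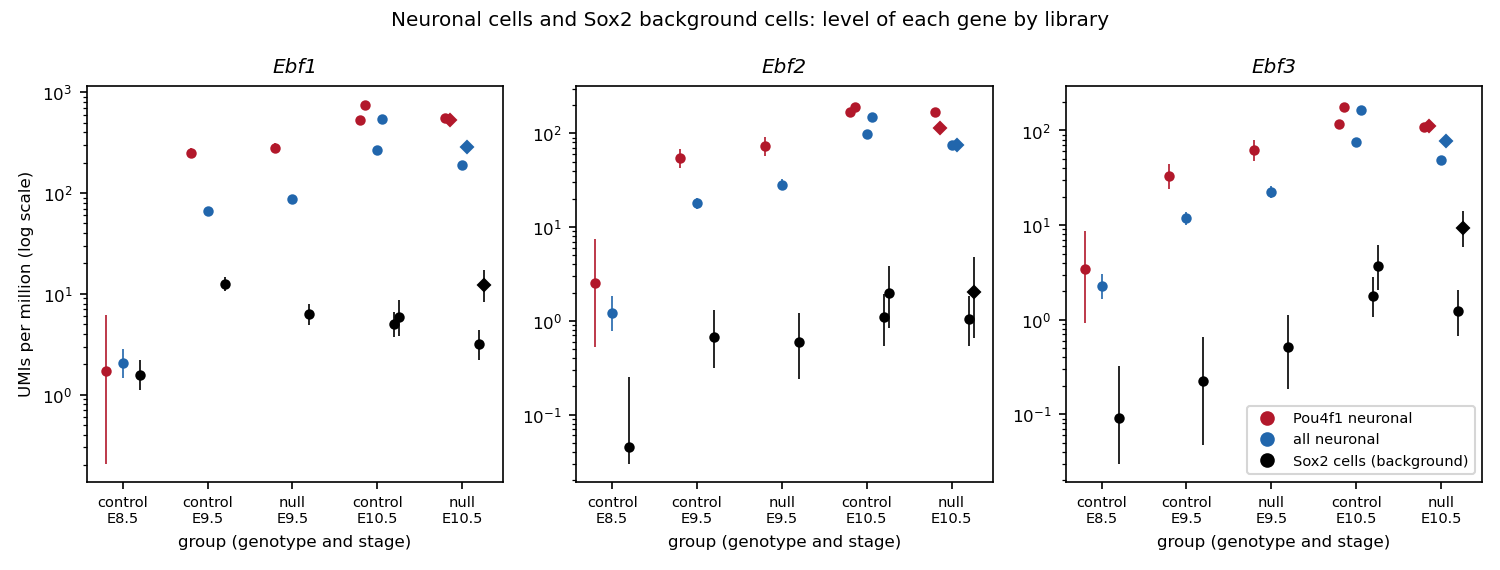
Level of Ebf1, Ebf2 and Ebf3 in all neuronal cells, in Pou4f1 neuronal cells and in Sox2 background cells, in CPM on a log axis, by group. Points are libraries with at least 50 cells of the class, diamonds mark null E10.5 replicate 2, and bars are 95% exact Poisson intervals. In Pou4f1 neuronal cells Ebf1 sat at 527 to 739 at E10.5, against 3.16 to 12.2 in Sox2 cells.

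Neuronal cells held more of each gene than mesenchymal cells at E10.5. Ebf1 was at 267, 545, 188 and 283 CPM in neuronal cells and at 61.5, 78.0, 51.3 and 59.1 in mesenchymal cells (control replicates 1 and 2, null replicates 1 and 2). Ebf2 was at 97.7, 148, 74.2 and 74.9 in neuronal and at 24.9, 30.8, 26.1 and 33.8 in mesenchymal cells. Ebf3 was at 75.3, 163, 49.1 and 77.6 in neuronal and at 57.3, 83.5, 36.4 and 57.4 in mesenchymal cells. The neuronal value was the higher one for each gene in each of the 4 libraries.

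The within-library log2 fold change was 2.24 for Ebf1 (SE 0.14, adjusted p = 0.000212 by edgeR), 1.71 for Ebf2 (SE 0.16, adjusted p = 0.000537 by edgeR) and 0.53 for Ebf3 (SE 0.099, adjusted p = 0.00616 by edgeR). These 2 cell classes differ widely, and 47.4% of 16437 genes were called. Without null E10.5 replicate 2 the values were 2.22, 1.87 and 0.55, and all passed. With clear gates (at least 20 neuronal or 10 mesenchymal UMIs and more than of the other kind) the differences were 3.40, 2.66 and 1.47. At E9.5 Ebf1 was at 66.3 and 88.1 in neuronal cells (control, null) and Ebf2 at 17.9 and 28.4, beside mesenchymal values of 24.9 and 26.8. Ebf3 was at 11.9 and 22.5 in neuronal cells and at 11.8 and 18.9 in mesenchymal cells at E9.5.

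Pou4f1, a POU factor of sensory neurons, marked neuronal cells with Ebf1 levels above those of all neuronal cells in each E9.5 and E10.5 library: 251 and 280 CPM at E9.5 (control, null) and 534, 739, 555 and 527 at E10.5. In Pou4f1 cells Ebf2 was at 167, 193, 168 and 113 and Ebf3 at 117, 179, 109 and 113. In the Sox2 background cells the highest value of the 3 genes was 12.6 CPM, for Ebf1 in control E9.5.

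**Figure D4:**
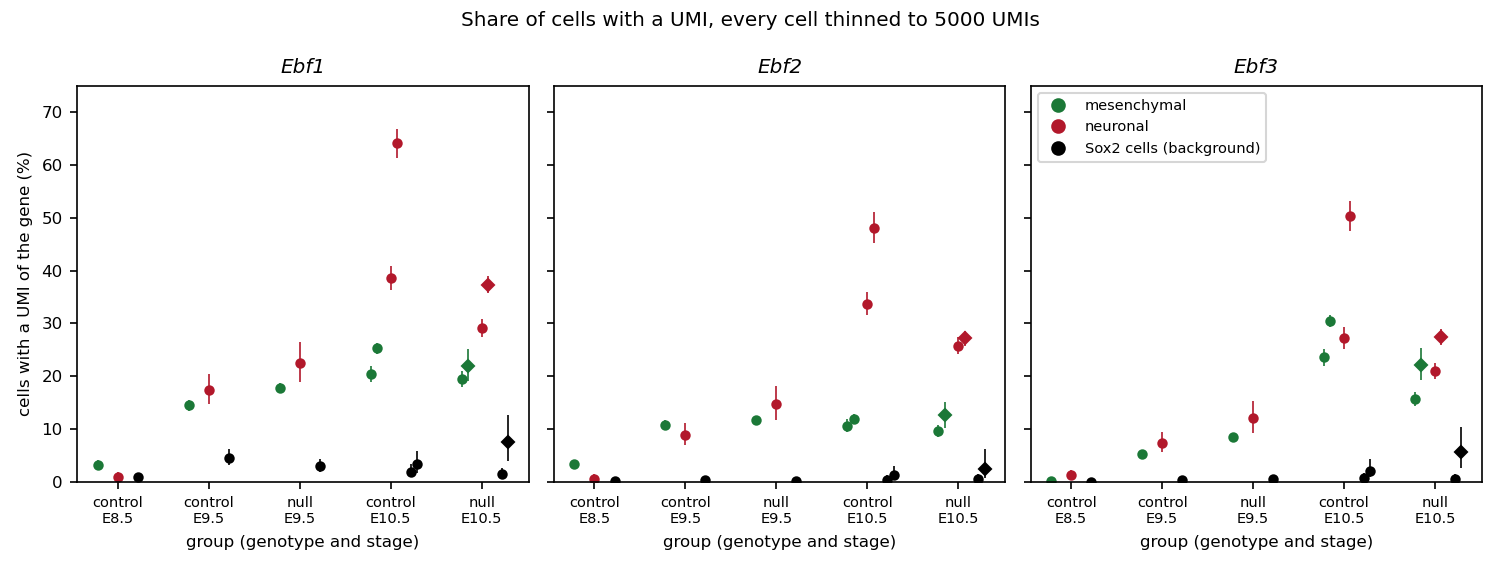
Percent of cells with a UMI of Ebf1, Ebf2 or Ebf3 in mesenchymal, neuronal and Sox2 background cells after thinning every cell to 5000 UMIs, by group. Points are libraries, diamonds mark null E10.5 replicate 2, and bars are 95% exact binomial intervals. Neuronal shares at E10.5 reached 64.2% for Ebf1, and background shares stayed at or below 7.45%.

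Shares of cells with a UMI were compared at 1 depth, with every cell thinned to 5000 UMIs. At E10.5 Ebf1 was found in 21.8% ± 2.5 (SD, n = 4 libraries) of mesenchymal and 42.3% ± 15.1 of neuronal cells. Ebf2 was found in 11.2% ± 1.4 and 33.7% ± 10.2, and Ebf3 in 23.0% ± 6.1 and 31.5% ± 12.9. Null E10.5 replicate 2 lay between the other 3 libraries in each of these except the mesenchymal share of Ebf2, where it was highest at 12.6%. Unthinned, the mesenchymal shares were 44.8%, 25.2% and 53.8% for Ebf1, Ebf2 and Ebf3, and the neuronal shares were 50.9%, 46.3% and 45.4%. Median depth was 16265.5 to 24475 UMIs in mesenchymal, 8916 to 16682.5 in neuronal and 10888 to 15688 in Sox2 cells at E10.5. In the Sox2 cells the thinned share was 1.46% to 7.45% for Ebf1, 0.34% to 2.48% for Ebf2 and 0.58% to 5.59% for Ebf3, with each highest value in null E10.5 replicate 2. The mesenchymal and neuronal shares at E10.5 lay above this background in every library. At E8.5 the mesenchymal share was 3.20% for Ebf1, 3.30% for Ebf2 and 0.10% for Ebf3, and at E9.5 (control, null) it was 14.4% and 17.8%, 10.7% and 11.7%, and 5.16% and 8.50%.

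Cells with 2 of the genes were counted at the same 5000 UMIs. In Pou4f1 neuronal cells of E10.5, 91.2%, 93.2%, 94.1% and 86.2% of the cells with an Ebf3 UMI also had an Ebf1 UMI (control replicates 1 and 2, null replicates 1 and 2). In mesenchymal cells that share was 22.6%, 25.8%, 25.9% and 29.9%, beside a mean of 21.8% of all mesenchymal cells with an Ebf1 UMI. Ebf1 was at 527 to 739 CPM in the Pou4f1 cells, and the share of all Pou4f1 cells with an Ebf1 UMI is not given here. How far the contrast between these classes follows the level of Ebf1 was not tested. Relative to the product of the 2 single shares, cells with both Ebf1 and Ebf3 numbered 1.02 to 1.36 times the product in mesenchymal and 1.34 to 2.58 times in neuronal cells. Cells with both Ebf1 and Ebf2 numbered 1.53 to 2.44 times the product in mesenchymal cells. Cells of 1 library are not replicates, and these ratios are descriptions.

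Across 82 points (1 class in 1 library with at least 50 cells) the genes most like Ebf1, by Pearson's r of log2(CPM + 1), included Ebf2 (0.91), Ebf3 (0.87), Rbfox2 (0.85) and Cacna2d1 (0.84). For Ebf2 they included Ebf1 (0.91), Ebf3 (0.86), Rbfox2 (0.83) and Cox19 (0.79), and for Ebf3 they were Mfap4 (0.88), Cdc42ep3 (0.87), Ebf1 (0.87), Ebf2 (0.86) and Sncaip (0.86). Over the 37 mesenchymal points Ebf1 was most like Col2a1 (0.84), Slc16a7 (0.84), Phlda3 (0.84), Tigd2 (0.82) and Foxd1 (0.82), and Ebf2 most like Postn (0.79), Crispld1 (0.79), Ebf1 (0.76), Col5a2 (0.76) and Inpp1 (0.75). Ebf3 was most like the collagen receptor Ddr2 (0.97), Lpar1 (0.96), Zfp148 (0.96), Clmp (0.96) and Pdzd8 (0.96). Over those points r was 0.76 between Ebf1 and Ebf2, 0.71 between Ebf1 and Ebf3 and 0.51 between Ebf2 and Ebf3. Points of 1 library share its depth and stage, so these values describe and do not test.

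**Figure D5:**
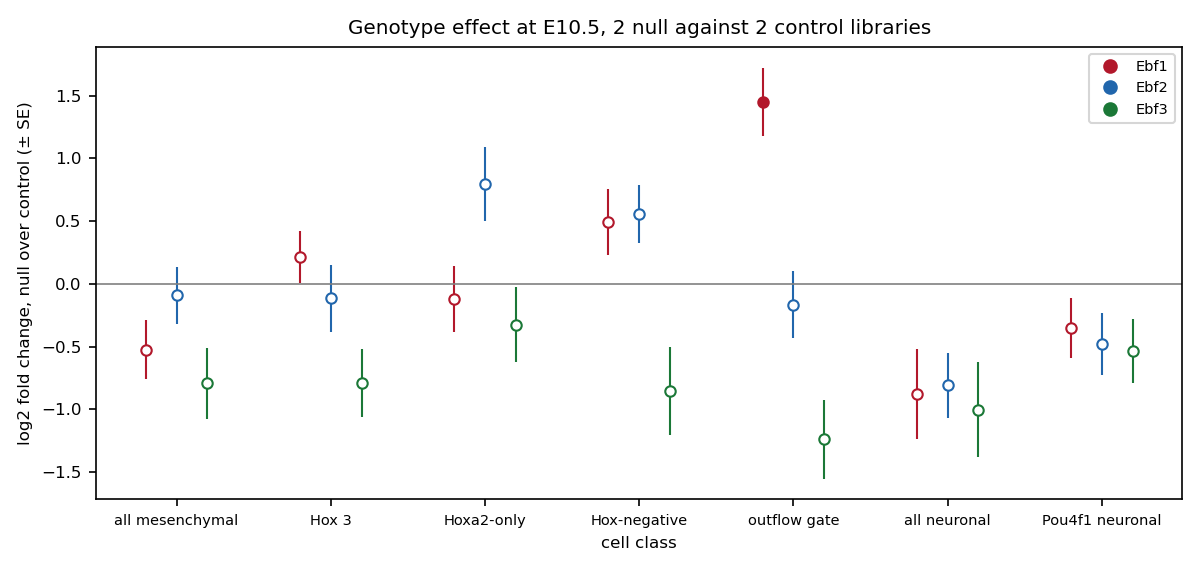
Genotype effect at E10.5 as log2 fold change of null over control, with its standard error, for Ebf1, Ebf2 and Ebf3 by cell class, from 2 null and 2 control libraries. Filled points passed an adjusted p of 0.05 and open points did not. Ebf1 in the outflow gate, at 1.45, is the only filled point. All 7 Ebf3 values are below 0, in classes that overlap and come from the same libraries.

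In null against control embryos at E9.5, with 1 library each and no test, no member reached a 2-fold ratio in any of 5 classes. The ratio of null over control for Ebf3 was 1.60 in all mesenchymal cells (95% interval 1.503 to 1.704, counting error only), 1.54 in Hox 3, 1.85 in Hoxa2-only, 1.495 in Hox-negative and 1.90 in neuronal cells. For Ebf1 it was 1.24, 1.46, 1.69, 1.09 and 1.33 in the same order, and for Ebf2 1.08, 1.09, 1.09, 1.02 and 1.58. Of genes with at least 10 CPM in a library, 0.613%, 0.913%, 0.832%, 0.649% and 0.963% were 2-fold or more apart in those classes. With cells thinned before the gates the Ebf3 ratio was 2.58 in Hox 3 and 2.75 in Hoxa2-only cells. The libraries differ in kit version as well as genotype.

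At E10.5 no planned genotype comparison called a member. The fitted Ebf3 difference was below 0 in each of the 7 classes compared. These classes overlap and come from the same libraries, so they are not separate support. In Dlx5/6-positive cells, which were not fitted alone, the null and control values of Ebf3 given above overlapped. In all mesenchymal cells it was at 57.3 and 83.5 CPM in control and 36.4 and 57.4 in null replicates 1 and 2. Null replicate 2 lay just above control replicate 1 and the other null value below both controls. Its log2 fold change was -0.79 (SE 0.28, adjusted p = 0.271 by edgeR, 0.213% of 15517 genes called) there and -0.79 (SE 0.27, adjusted p = 0.328 by edgeR, 0.0213% of 14057 called) in Hox 3 cells. In Hox-negative cells Ebf3 differed by -0.85 (SE 0.35, adjusted p = 0.307 by edgeR, 0.0873% of 12599 called) and in Hoxa2-only cells by -0.33 (SE 0.30, 0.185% of 13492 called). Leaving out null E10.5 replicate 2, the Ebf3 difference was -1.03 in all mesenchymal and -0.65 in Hoxa2-only cells, which did not pass. It was then -1.06 in Hox 3 (adjusted p = 0.0387 by edgeR) and -1.44 in Hox-negative cells (adjusted p = 0.0141 by edgeR). Without null E10.5 replicate 1, the version 3 library, it was -0.51 and -0.37, and neither passed. The study lists that library at fewer somites than the other E10.5 libraries, and the part of that in the Ebf3 values was not tested. With replicate number as a block the Hox-negative value was -0.85 with an adjusted p of 0.00531 by edgeR. That setting called 781 genes in Hox-negative cells, against 11 in the main setting. In this comparison the null mesenchymal cells held more neural progenitor markers (101 and 176 CPM) than the control cells (42.7 and 12.8), and the part of that in the Ebf values was not tested.

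Ebf1 differed between genotypes by -0.52 (SE 0.23, adjusted p = 0.362 by edgeR) in all mesenchymal cells, by -0.12 (SE 0.26) in Hoxa2-only cells, by 0.22 (SE 0.21) in Hox 3 cells and by 0.49 (SE 0.26) in Hox-negative cells; none passed. Leaving out null E10.5 replicate 2, these were -0.52, -0.40, 0.14 and 0.17, and none passed. The Hox 3 and Hox-negative values had the opposite sign to the pooled one. The part that the mix of Hox classes plays in the pooled value was not tested. Ebf2 differed by -0.090 (SE 0.23) in all mesenchymal cells, by 0.80 (SE 0.29, adjusted p = 0.351 by edgeR) in Hoxa2-only cells by 0.56 (SE 0.23, adjusted p = 0.309 by edgeR) in Hox-negative cells and by -0.11 (adjusted p = 0.879 by edgeR) in Hox 3 cells. With null E10.5 replicate 2 left out, these were -0.17, 0.44, 0.32 and -0.47, and none passed. In Hoxa2-only cells Ebf2 was at 28.5 and 37.8 in control and 47.6 and 83.8 in null libraries. Without null E10.5 replicate 1 the Ebf2 difference there was 1.14. All libraries were then version 3.1, and the null arm was the 128 Hoxa2-only cells of null E10.5 replicate 2. Between Hox 3 and Hox-negative cells the genotype effect differed by -0.16 for Ebf1 (SE 0.15, adjusted p = 0.831 by edgeR). For Ebf3 it differed by 0.17 (SE 0.14, adjusted p = 0.786 by edgeR), and neither passed. The Ebf2 difference was -0.71 (SE 0.13, adjusted p = 0.0803 by edgeR, 0.245% of 14291 called). It passed in 5 of the other settings and without null E10.5 replicate 2 (-0.77, adjusted p = 0.0217 by edgeR).

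In neuronal cells no member passed: the differences of null from control were -0.88 for Ebf1 (SE 0.36), -0.81 for Ebf2 (SE 0.26) and -1.003 for Ebf3 (SE 0.38), with adjusted p of 0.562 to 0.564 by edgeR. The Ebf1 and Ebf3 values given above overlapped, with null replicate 2 above control replicate 1. Those of Ebf2 did not, and the share of all genes with such separation was not counted. No gene passed in that comparison (0% of 15019; 1303 had an unadjusted p under 0.05, and DESeq2 called 53). In the Pou4f1 cells the differences were -0.35, -0.48 and -0.53, none of which passed (0.0241% of 12462 called). Without null E10.5 replicate 2 the differences were -1.14, -0.76 and -1.30 in neuronal and -0.32, -0.22 and -0.56 in Pou4f1 cells (Ebf1, Ebf2 and Ebf3), and none passed. Without control E10.5 replicate 1 the neuronal differences of Ebf1 and Ebf3 were -1.29 and -1.45, and without control E10.5 replicate 2 they were -0.29 and -0.35. With clear gates the neuronal differences were -0.36, -0.19 and -0.48. The difference of the genotype effect between neuronal and mesenchymal cells did not pass for any member, at -0.26, -0.65 and -0.11 for Ebf1, Ebf2 and Ebf3 (0.0426% of 16437 called), or at -0.57, -0.59 and -0.22 without null E10.5 replicate 2. Neuron markers in this class summed to 1704 and 2550 CPM in control and 1078 and 1664 in null libraries, and their part in the Ebf differences was not tested.

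Other genes tied to the family were read in the same comparisons. Ebf4, the fourth paralog, stayed at or below 1.67 CPM in mesenchymal and neuronal cells of every library. Zfp423 and Zfp521, zinc finger proteins that bind EBF factors, were at 12.9 to 27.4 and 19.4 to 34.1 in mesenchymal cells from E9.5 on, and none of these 3 passed in any genotype comparison in which it was tested, again beside 0% to 0.348% of all genes. In the Barx1 and Dlx5/6 splits Zfp423 was lower in positive cells, by -0.29 and -0.26 (adjusted p = 0.00764 and 0.0253 by edgeR), and the other 2 did not pass. That is 1 of 3 in each split, beside 32.1% and 22.2% of all genes called, a share near that of all genes. Between Hoxa2-only and Hox-negative cells Ebf4 was lower by -1.40 and Zfp521 higher by 0.34 (adjusted p = 0.0411 and 0.0477 by edgeR, 14.7% of all genes called). Zfp521 was lower in neuronal than in mesenchymal cells by -1.18 (adjusted p = 0.000647 by edgeR, 47.4% of all genes called), where the 3 Ebf genes were higher. The proneural and early neuronal factors Neurog1, Neurog2, Neurod1, Neurod4 and Atoh1 were each higher in neuronal than in mesenchymal cells, with log2 fold changes of 5.15 (Atoh1) to 7.47 (Neurod1) beside a median of -0.013 over all genes. Between genotypes at E10.5, 5 of the 6 listed factors were tested in all mesenchymal cells and 1 passed, higher in null (0.213% of 15517 genes called). Their median log2 difference was 3.24, beside -0.020 over all genes. In neuronal cells all 6 were tested, none passed and the median was -0.30. The part of this in the Ebf values was not tested.

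Of 5 early B lineage genes that EBF1 switches on, none exceeded 2.13 CPM in mesenchymal cells. Few had enough counts for a genotype comparison at E10.5: 3 were tested in all mesenchymal and 3 in neuronal cells, 2 in Hox 3 cells, 1 each in Hoxa2-only, Hox-negative and outflow gate cells and 0 in Pou4f1 cells. None of those tested passed, where 0% to 0.348% of all genes did. In the comparisons between classes and stages Cd79b, a part of the B cell receptor, was higher in Hox 3 than in Hox-negative cells (2.07), rose with stage in Hox 3 cells (1.22) and was lower in Dlx5/6-positive cells (-1.38) and in neuronal cells (-4.74). In neuronal cells Pax5, which also marks the midbrain-hindbrain region, was higher by 7.08 and Vpreb1 lower by -0.98. These log2 differences passed (adjusted p = 0.000847 to 0.0458 by edgeR), in comparisons that called 8.15%, 23.1%, 22.2% and 47.4% of all genes. Of 3 adipocyte genes, Pparg was at 0.00915 CPM or less in mesenchymal cells and was not tested. Prdm16 rose from E9.5 to E10.5 by 1.86 in Hox 3 and 2.65 in Hoxa2-only cells (adjusted p = 0.00199 and 0.00105 by edgeR) and was higher in Barx1-positive cells by 0.66 (adjusted p = 0.00268 by edgeR), in comparisons that called 23.1%, 14.3% and 32.1% of all genes. It was lower in neuronal than in mesenchymal cells by -1.42 (adjusted p = 0.00493 by edgeR, 47.4% of all genes called). Cebpa was higher in Dlx5/6-positive cells by 1.44 (adjusted p = 0.0291 by edgeR, 22.2% of all genes called).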

How the data were processed

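UMI counts per gene and barcode were used as deposited. The authors made these counts with Cell Ranger 6.0.1 against mm10 (per the submitters' processing notes), 1 filtered matrix per library. Barcodes were kept from 1000 detected genes upward and up to 10% mitochondrial UMIs, and the barcodes with the highest Scrublet scores (scanpy 1.11.5) were removed as doublets, 0.8% per 1000 barcodes. Libraries were grouped by their titles. Summed counts of each class in each library were tested with edgeR 4.0.16 (TMM, filterByExpr, quasi-likelihood test, R 4.3.3), with Benjamini-Hochberg adjustment over all genes and a threshold of 0.05. Levels are UMIs per 1000000 UMIs of the class (CPM). The 3′ counts were compared between cells and not between genes. With 1 library per group at E8.5 and E9.5, no test was made within those stages. Intervals cover counting error only.

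The members and lists were chosen with earlier results of these data known. Genes named are the 3 members, 4 lists (paralog and cofactors, proneural, B lineage, adipocyte), Tbx1 and the 5 genes most like each member among those with at least 10 CPM in 3 or more points. Alternatives were DESeq2 1.42.0 and its size factors, no low-count filter, the study's thresholds (a log2 change of 0.25 and detection in 10% of cells), other cell filters, gates and thinning, each library left out, and a replicate block. Clear gates and 4 comparisons (outflow gate, Pou4f1 cells, both Dlx5/6 differences) were added after seeing the data. Some genes of these lists are not reported here.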

Additional observations from a re-analysis of the deposited data

Results flagged for a closer look

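The difference between Dlx5/6-positive and negative mesenchymal cells differed between the groups compared by a test of the difference itself (edgeR's quasi-likelihood test with Benjamini-Hochberg adjustment, chosen after the levels were seen). Between E9.5 and E10.5 it changed by 1.54 for Ebf1 and by -1.89 for Ebf3 on the log2 scale. Neither stage call held without either E9.5 library, without control E10.5 replicate 1 or with cells past both gates kept, and the Ebf3 call also ended without null E10.5 replicate 2. Between null and control libraries at E10.5 it differed by -0.83 for Ebf1 and by 1.04 for Ebf3. The Ebf1 genotype call ended without null E10.5 replicate 1 (adjusted p = 0.0665 by edgeR), and the Ebf3 call passed in each setting run. The stage change is joined to the dissection of the first arch, and the genotype difference includes a null library with 60 Dlx5/6-positive cells.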

How the results depend on the processing

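Of all values recomputed under another setting, 952 kept their direction and side of the threshold (or, with no test, stayed within the replicate spread or counting interval, or, for a count of genes, within 1.5 times). Of the others 39 changed sign, 85 fell below and 123 rose past the threshold or the 1.5-fold margin, and 27 values with no test moved further than their spread. The number of genes called varied widely: over the settings it was 33 (16 to 968) for genotype in all mesenchymal cells, 3 (2 to 603) in Hox 3, 25 (18 to 648) in Hoxa2-only, 11 (2 to 781) in Hox-negative and 0 (0 to 469) in neuronal cells. It was 2073 (69 to 2995) for Hoxa2-only against Hox-negative cells and 3301 (204 to 5086) for stage in Hox 3 cells. It was 43 (0 to 1315) for genotype in the outflow gate, 188 (2 to 1371) for Dlx5/6 by stage and 1464 (182 to 1523) for Dlx5/6 by genotype, so the shares of genes called in the report hold for its own setting. With 2 libraries per genotype, and 1 per genotype at E9.5, a left-out library leaves its arm with 1, assumed to vary like the others. Where values changed, the cause was not tested.

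With a floor of 200 genes and a ceiling of 5% mitochondrial UMIs the log2 difference of Ebf2 (genotype, all mesenchymal) at 0.0014, Ebf2 (genotype, Hox 3) at 0.0019, Ebf2 (genotype, outflow gate) at 0.013 changed sign. There that of Ebf1 (genotype, outflow gate) at 1.39 no longer passed. There that of Ebf2 (genotype by class, Hox 3 and Hox-negative) at -0.68 passed. With cells thinned to 5000 UMIs before the gates the log2 difference of Ebf2 (genotype, all mesenchymal) at 0.071, Ebf3 (Barx1-positive against Barx1-negative) at -0.079, Ebf3 (Dlx5/6-positive against Dlx5/6-negative) at -0.15, Ebf1 (genotype by class, Hox 3 and Hox-negative) at 0.45, Ebf3 (genotype by class, neuronal and mesenchymal) at 0.022, Ebf1 (genotype, Pou4f1 neuronal) at 0.099, Ebf2 (Dlx5/6 by stage) at -0.039, Ebf2 (Dlx5/6 by genotype) at -0.060 changed sign. There that of Ebf3 (Hox 3 against Hox-negative) at -0.059 no longer passed. There that of Ebf2 (Hoxa2-only against Hox-negative) at 0.42, Ebf1 (Dlx5/6-positive against Dlx5/6-negative) at 0.31, Ebf2 (genotype by class, Hox 3 and Hox-negative) at -1.21, Ebf3 (genotype, outflow gate) at -1.70 passed. With gates at 4 and 6 UMIs the log2 difference of Ebf2 (genotype, all mesenchymal) at 0.10, Ebf2 (genotype, Hox 3) at 0.23 changed sign. There that of Ebf1 (genotype, outflow gate) at 1.12 no longer passed. With clear gates the log2 difference of Ebf2 (genotype, all mesenchymal) at 0.26, Ebf2 (genotype, Hox 3) at 0.48, Ebf1 (genotype, Hoxa2-only) at 0.19, Ebf3 (Barx1-positive against Barx1-negative) at -0.069, Ebf1 (Dlx5/6-positive against Dlx5/6-negative) at -0.23, Ebf1 (genotype by class, Hox 3 and Hox-negative) at 0.29, Ebf3 (genotype by class, neuronal and mesenchymal) at 0.065, Ebf2 (genotype, outflow gate) at 0.32, Ebf1 (genotype, Pou4f1 neuronal) at 0.0059 changed sign. There that of Ebf1 (stage, Hox 3) at 0.49, Ebf1 (genotype, outflow gate) at 1.00 no longer passed. With cells past both gates kept the log2 difference of Ebf2 (genotype, Hox 3) at 0.24, Ebf1 (genotype by class, Hox 3 and Hox-negative) at 0.38 changed sign. There that of Ebf1 (Hox 3 against Hox-negative) at -0.57, Ebf2 (Barx1-positive against Barx1-negative) at -0.50, Ebf1 (genotype, outflow gate) at 1.79, Ebf1 (Dlx5/6 by stage) at 1.38, Ebf3 (Dlx5/6 by stage) at -1.855 no longer passed. Without a filter on low counts the log2 difference of Ebf3 (genotype, Hox-negative) at -0.96, Ebf3 (genotype, neuronal) at -0.96, Ebf2 (genotype by class, Hox 3 and Hox-negative) at -0.72, Ebf2 (genotype by class, neuronal and mesenchymal) at -0.69, Ebf3 (genotype, outflow gate) at -1.23, Ebf2 (Dlx5/6 by genotype) at 0.60 passed. With the replicate number as a block the log2 difference of Ebf3 (genotype, Hox-negative) at -0.85, Ebf3 (genotype, outflow gate) at -1.18 passed. With doublets kept the log2 difference of Ebf1 (stage, Hox 3) at 0.46, Ebf1 (genotype, outflow gate) at 1.16 no longer passed. There that of Ebf2 (genotype by class, Hox 3 and Hox-negative) at -0.77, Ebf2 (Dlx5/6 by genotype) at 0.56 passed. With all deposited barcodes the log2 difference of Ebf1 (stage, Hox 3) at 0.47, Ebf1 (genotype, outflow gate) at 1.17 no longer passed. There that of Ebf2 (genotype by class, Hox 3 and Hox-negative) at -0.78, Ebf2 (Dlx5/6 by genotype) at 0.56 passed. By DESeq2 the log2 difference of Ebf2 (genotype by class, neuronal and mesenchymal) at -0.76, Ebf3 (genotype, outflow gate) at -1.21 passed. With DESeq2's size factors the log2 difference of Ebf1 (genotype, outflow gate) at 1.47 no longer passed.

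Thinned before the gates, the E9.5 ratio of null over control moved to 1.17 (Ebf2 mesenchymal), 1.78 (Ebf1 Hox 3), 2.58 (Ebf3 Hox 3), 2.75 (Ebf3 Hoxa2-only), 1.21 (Ebf1 Hox-negative), 1.17 (Ebf2 Hox-negative), 1.33 (Ebf3 neuronal). With cells thinned to 5000 UMIs before the gates, E8.5 levels were 8.53 (Ebf1 mesenchymal), 7.8 (Ebf2 mesenchymal), 5.56 (Ebf1 neuronal), 6.67 (Ebf2 neuronal), 7.78 (Ebf3 neuronal) CPM. With cells past both gates kept, E8.5 levels were 7.03 (Ebf2 mesenchymal), 3.87 (Ebf1 neuronal), 2.28 (Ebf2 neuronal), 1.36 (Ebf3 neuronal) CPM. With gates at 4 and 6 UMIs, E8.5 levels were 4.27 (Ebf1 neuronal), 2.54 (Ebf2 neuronal), 4.38 (Ebf3 neuronal) CPM. With no thinning, the E10.5 shares moved to 44.8% (Ebf1 mesenchymal), 25.1% (Ebf2 mesenchymal), 53.8% (Ebf3 mesenchymal), 46.3% (Ebf2 neuronal), 45.4% (Ebf3 neuronal). At 3000 UMIs, the E10.5 shares moved to 14.8% (Ebf1 mesenchymal), 7.45% (Ebf2 mesenchymal), 15.2% (Ebf3 mesenchymal).

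With 1 library left out the log2 differences that changed sign or side of the threshold ranged over (genotype, all mesenchymal) -0.26 to 0.092 for Ebf2, and over (genotype, Hox 3) -0.47 to 0.24 for Ebf2, -1.06 to -0.51 for Ebf3, and over (genotype, Hoxa2-only) -0.40 to 0.15 for Ebf1, 0.44 to 1.14 for Ebf2. They ranged over (genotype, Hox-negative) -1.44 to -0.37 for Ebf3, and over (genotype, neuronal) -1.29 to -0.29 for Ebf1, -1.45 to -0.35 for Ebf3, and over (Hox 3 against Hox-negative) -0.45 to -0.31 for Ebf3. They ranged over (Hoxa2-only against Hox-negative) 0.65 to 0.93 for Ebf1, -0.017 to 0.15 for Ebf2, -0.35 to -0.013 for Ebf3, and over (Barx1-positive against Barx1-negative) -0.10 to 0.37 for Ebf3, and over (Dlx5/6-positive against Dlx5/6-negative) 0.045 to 0.43 for Ebf1, -0.087 to 0.50 for Ebf3. They ranged over (genotype by class, Hox 3 and Hox-negative) -0.77 to -0.45 for Ebf2, -0.088 to 0.39 for Ebf3, and over (genotype by class, neuronal and mesenchymal) -0.63 to 0.040 for Ebf1, -0.90 to -0.54 for Ebf2, -0.42 to 0.14 for Ebf3, and over (stage, Hox 3) 0.61 to 0.81 for Ebf1, 1.59 to 2.88 for Ebf3. They ranged over (stage, Hoxa2-only) 1.04 to 1.85 for Ebf1, 1.27 to 2.41 for Ebf3, and over (genotype, outflow gate) -0.43 to 0.14 for Ebf2, -1.58 to -0.73 for Ebf3, and over (Dlx5/6 by stage) 1.34 to 1.73 for Ebf1, -0.066 to 0.32 for Ebf2, -2.24 to -1.65 for Ebf3. They ranged over (Dlx5/6 by genotype) -0.94 to -0.71 for Ebf1, 0.39 to 1.40 for Ebf2.

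Replicate numbers of the 2 E10.5 groups mark no shared litter or batch in the labels. Deviations of libraries with the same number correlated at 0.10 to 0.25 over the 5 classes. The replicate block gave the 2 calls above for Ebf3 (Hox-negative and outflow gate genotype differences), the outflow Ebf1 value was 1.44, it moved the genes called in Hox-negative cells from 11 to 781, and it changed no other call of a member.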
